A study of Homo sapiens with 6 samples.

Results

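Cholesterol and fatty acids are both built from acetyl-CoA, and 30 genes of these pathways were followed here, chosen by symbol. They were 18 enzymes of sterol synthesis, 8 enzymes of fatty acid synthesis and desaturation, and 4 genes that control the pathways or carry sterols. All 30 were among the 53712 genes of the deposited count table, and all 30 were among the 16873 genes with enough reads to be tested. RNA-seq was made from poly(A) RNA of H9, an established human embryonic stem cell line, held in PXGL medium, which keeps such cells in a naive state. One group was transfected with an antisense oligonucleotide to LINE-1 (ASO-L1) and the other with the matching sense oligonucleotide (SO-L1), each at 25 nM. LINE-1 is a retrotransposon family that naive cells transcribe. Both groups also received 0.7 uM trans-ISRIB, which blunts the integrated stress response, 5 uM of the caspase inhibitor emricasan and 10 uM of the ROCK inhibitor Y-27632, all removed after 24 hours. Unsorted cells were taken 48 hours after transfection, with 3 libraries per group numbered 1 to 3 in both. The labels do not state that these came from separate cultures, so p-values measure the spread between these libraries, which may be technical. The table lists genes only, with 0 rows for LINE-1 elements, and LINE-1 RNA is not analysed here.

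The mevalonate pathway turns acetyl-CoA into isoprenoid units, squalene and lanosterol, and a second set of endoplasmic reticulum enzymes turns lanosterol into cholesterol. Fatty acid synthesis starts from the same acetyl-CoA, which is carboxylated, built into palmitate, lengthened and desaturated. Both are under the SREBP transcription factors, which are held in the endoplasmic reticulum by INSIG proteins when sterols are plentiful and go to the nucleus when sterols are low. SREBP-2, made from SREBF2, acts mostly on sterol genes and SREBP-1c, made from SREBF1, mostly on fatty acid genes. In known targets the SREBP site, the sterol regulatory element, lies beside a CCAAT box bound by NF-Y and a GC box bound by Sp1.

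Among the 26 members searched, SREBF2 alone had a match to TCACNCCAC, a form of the sterol regulatory element. MSMO1 and MVK are sterol genes with many CCAAT boxes, of which MSMO1 fell and MVK was not called. The promoters of SREBF2, MSMO1 and MVK are given below. Each is the 250 bases before the RefSeq start site on the plus strand of GRCh38.p14, at chr22:41832855-41833104 for SREBF2, chr4:165327419-165327668 for MSMO1 and chr12:109573544-109573793 for MVK. Capitals mark CCAAT on either strand (ATTGG on the strand shown) and, in SREBF2, the match TCACCCCAC to the element TCACNCCAC.
SREBF2: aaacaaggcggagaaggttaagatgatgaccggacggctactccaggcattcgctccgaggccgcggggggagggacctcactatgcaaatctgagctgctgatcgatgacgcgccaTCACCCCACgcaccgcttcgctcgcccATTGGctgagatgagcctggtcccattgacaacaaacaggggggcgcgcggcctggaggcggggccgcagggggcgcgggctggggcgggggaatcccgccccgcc
MSMO1: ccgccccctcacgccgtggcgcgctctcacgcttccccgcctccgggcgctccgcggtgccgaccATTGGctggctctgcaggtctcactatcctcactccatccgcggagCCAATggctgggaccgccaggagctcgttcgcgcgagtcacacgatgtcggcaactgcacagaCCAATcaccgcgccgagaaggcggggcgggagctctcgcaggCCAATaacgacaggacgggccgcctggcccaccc
MVK: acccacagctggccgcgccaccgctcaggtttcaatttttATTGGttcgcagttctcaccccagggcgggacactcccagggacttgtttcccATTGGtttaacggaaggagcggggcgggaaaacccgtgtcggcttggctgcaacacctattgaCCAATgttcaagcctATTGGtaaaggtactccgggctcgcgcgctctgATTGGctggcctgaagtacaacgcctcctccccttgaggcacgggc

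In SREBF2 the element began 133 bases before the start site (position -133), and 18 bases separated it from the CCAAT box. RefSeq windows were found for 26 of the 30 genes (not for ACAT2, FASN, FDFT1 and SQLE), 36 windows in all because some genes have several starts, and every motif was sought on both strands. TCACNCCAC was in 1 of the 36 windows (2.78%) and in 0.883% of all 35116 promoter windows of the same length. CCAAT was in 24 of 36 (66.7%, against 32% of all windows), GGGCGG, the GC box, in 32 of 36 (88.9%, against 42.6%), and the E-box CACGTG in 3 of 36 (8.33%, against 6.34%). Motifs that shared bases were counted for each motif, and some windows of the same gene overlap, such as those of ACLY and SC5D. The windows compared against were not matched for expression. These shares therefore do not show that the boxes are particular to lipid genes. Of the 13 genes with a window that were lower after ASO-L1, described next, 11 held a CCAAT box in at least 1 window, and so did 9 of the 13 that were not called. All 13 lower genes and 12 of the 13 others held a GC box. Both boxes were thus common among the genes that fell and among those that were not called. A match to these letters is a description of the sequence and not evidence of binding in these cells.

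Genes of both pathways were modestly lower after ASO-L1. Of the 30 genes, 14 fell and 0 rose at an adjusted p under 0.05 by edgeR's quasi-likelihood test, fitted and Benjamini-Hochberg adjusted over all 16873 genes. By the same test 15.7% of all tested genes fell and 18% rose. Among tested genes at least as abundant as the lowest member (a mean of 9.43 CPM, which are counts scaled to a common library size) the share that fell was 20.5%. The median log2 fold change of the 30 genes was -0.24, a change of -15.5%, against -0.01 over all tested genes. The largest fall was -0.58 (TM7SF2) and the highest estimate 0.12 (NSDHL), so no member changed as much as 2-fold. Sterol enzymes had 8 of 18 lower, fatty acid enzymes 4 of 8, and the regulators and the transport gene 2 of 4. The RNA comes from whole cultures, in which fewer cells making a transcript and less transcript per cell cannot be told apart.

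**Figure D1:**
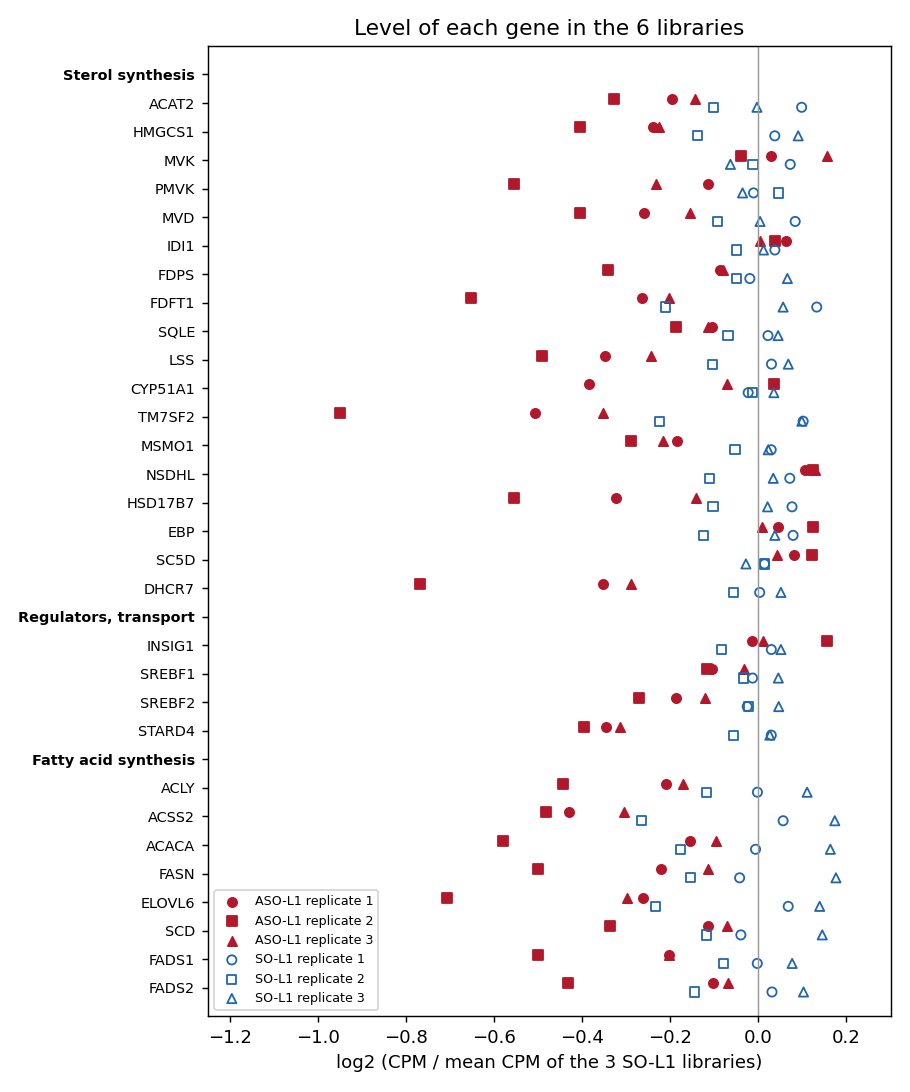
Level of each of the 30 genes in each library, as the log2 ratio of its CPM to the mean CPM of the 3 SO-L1 libraries (x axis). Filled red points are ASO-L1 and open blue points SO-L1, with a circle, square and triangle for replicates 1, 2 and 3. ASO-L1 replicate 2 is the lowest point of 23 of the 30 genes.

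Replicate 2 stood apart in both groups. ASO-L1 replicate 2 was the lowest of the 6 libraries for 23 of the 30 genes (76.7%), against 33.9% of all tested genes. Total counts per library lay between 23330875 and 31164287. On the first principal component (68.8% of the variance of log2 CPM) the groups were apart. All 3 ASO-L1 libraries lay below all 3 SO-L1 libraries for 18 of the 30 genes and above them for 2, NSDHL and SC5D. The corresponding shares of all tested genes were 25.1% and 25.8%. Within replicate numbers 1, 2 and 3, the ASO-L1 library was below the SO-L1 library for 27, 24 and 27 of the 30 genes. Over all 16873 tested genes the same held for 8451, 8759 and 8492. With both libraries of number 2 left out, 20 of the 30 fell, including all 14 above, against 20.1% of all tested genes. Without SO-L1 replicate 1 or SO-L1 replicate 3, LSS and STARD4 were the 2 calls that remained, where 8.51% and 8.07% of all tested genes fell. Without ASO-L1 replicate 1 or ASO-L1 replicate 2, 8 of the 14 remained (10.8% and 13% of all tested genes fell). Without number 1 of both groups 0 of the 14 remained (2.5% of all tested genes fell), and without number 3 of both groups LSS, TM7SF2, DHCR7 and STARD4 did (7.23%). The number called thus rested on particular libraries. The sterol median stayed between -0.26 and -0.19 and the fatty acid median between -0.35 and -0.18 in all fits that left out a library or a number.

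Markers of the labelled naive state were present alongside markers of primed cells, so the marker levels alone did not set the cells apart as naive. KLF17, a naive marker, had 0.371, 0.263 and 0.552 CPM after ASO-L1 and 0.544, 0.936 and 0.75 CPM after SO-L1. Its mean was the lowest of the 12 naive markers in both groups. Means of the other naive markers ran from 9.38 (DPPA3) to 265 CPM (ZFP42) after ASO-L1, and from 17.4 to 282 CPM after SO-L1. KLF17, DPPA3 and ZFP42 are named after their values were seen. Of 12 naive markers and 8 core pluripotency markers all had reads, summing to 622 to 625 CPM in the ASO-L1 libraries and 699.7 to 720.3 CPM in the SO-L1 libraries for the naive set, and to 4167 to 4812 and 4843 to 5205 CPM for the core set. By edgeR's test, by which 15.7% of all tested genes fell and 18% rose, 5 of the 12 naive markers fell and 2 rose, and 1 of the 8 core markers fell. Of the other lists, 4 of 8 tested primed markers, 5 of 9 tested fibroblast markers and 3 of 8 tested trophectoderm markers rose and 0 fell, with THY1 counted among both the primed and the fibroblast markers. The 9 primed markers in the table summed to 759.8 to 839 CPM after ASO-L1 and 581 to 602 CPM after SO-L1, and 10 fibroblast markers to 685 to 819 and 550.0 to 621 CPM. The 10 trophectoderm markers summed to 113 to 132 and 113 to 116 CPM, and the 10 eight-cell markers to 23.6 to 29.7 and 20.7 to 26.6 CPM, with DUX4 at 0 in all libraries. The part of these shifts in the lipid gene result was not tested.

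Per kilobase of exon, the most abundant members in SO-L1 cells were SCD, FASN, HMGCS1 and ACLY, and the least abundant CYP51A1, MVK, HSD17B7 and FDPS. Mean levels per kilobase, with exon lengths of GENCODE v29, were 177 CPM per kb after ASO-L1 and 199 after SO-L1 for SCD, and 2.52 and 2.75 for CYP51A1. The annotation used for counting is not given in the sources used here, and some of these levels depend on it. In GENCODE v29, 79.4% of the exon bases of CYP51A1 are shared with other genes on the same strand and 52.3% of those of ACAT2 lie opposite exons of another gene. HSD17B7 has pseudogenes whose rows held reads equal to 16.1% of its own, so values of these 3 genes are uncertain. In FDPS 18.6% of exon bases lie opposite another gene, the highest share after ACAT2, while the 7 of its pseudogenes in the table held reads equal to 0.336% of its own.

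The entry into the mevalonate pathway was lower at both genes measured. ACAT2, the cytosolic thiolase that joins acetyl-CoA units, had 132, 120.5 and 137 CPM in ASO-L1 replicates 1 to 3, against 162, 141 and 151 CPM in SO-L1 replicates 1 to 3. Its log2 fold change was -0.22 ± 0.07 (SE; edgeR adjusted p = 0.0391). HMGCS1, the HMG-CoA synthase of the cytosol, had 561, 499.9 and 566 CPM in ASO-L1 libraries, against 679.5, 602 and 705 CPM in SO-L1 libraries. It fell by 18.1% (log2 fold change -0.29 ± 0.08, edgeR adjusted p = 0.0171), and within numbers 1, 2 and 3 the log2 ratios were -0.28, -0.27 and -0.32. For both genes every ASO-L1 library lay below every SO-L1 library.

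Of the 5 enzymes from mevalonate to farnesyl diphosphate, MVD alone fell. MVD, which decarboxylates diphosphomevalonate to the first isoprenoid unit, had 83.5, 75.5 and 89.8 CPM after ASO-L1 and 106, 93.8 and 100.3 CPM after SO-L1, with no overlap (-0.27 ± 0.08, edgeR adjusted p = 0.0260). PMVK, phosphomevalonate kinase, had an estimate of the same size, -0.28 ± 0.12, that was not called (0.0871) and was called with the replicate number as a block (0.0299). IDI1, the isomerase of the isoprenoid units, had 172, 169 and 165 CPM after ASO-L1 and 169, 159 and 166 CPM after SO-L1. Its 95% interval, from -6.41% to 11.8%, has -6.41% as its lowest value. MVK, mevalonate kinase, was at 0.05 ± 0.08 (edgeR adjusted p = 0.659) and FDPS, farnesyl diphosphate synthase, at -0.16 ± 0.09 (0.18), and the sign of the MVK estimate changed without replicate 3 of both groups (-0.03).

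At squalene and lanosterol, LSS fell and the other pair had estimates below 0. LSS, which cyclises squalene epoxide to lanosterol, had 201, 182 and 216 CPM in ASO-L1 libraries and 261, 238 and 268 CPM in SO-L1 libraries. It fell by 21.9% (-0.36 ± 0.08, edgeR adjusted p = 0.00696), with the smallest p of the 18 sterol enzymes. FDFT1, squalene synthase, had 433, 331 and 452 CPM after ASO-L1 and 570.4, 449.6 and 541 CPM after SO-L1, so that the ASO-L1 replicate 3 library lay just above SO-L1 replicate 2. It was not called (-0.36 ± 0.13, edgeR adjusted p = 0.0586), but was with the replicate block (0.000103), by DESeq2 (0.0178) and by limma-voom (0.0417). SQLE, squalene epoxidase and a rate-limiting step, had 285, 269 and 283 CPM after ASO-L1 and 311, 292 and 316 CPM after SO-L1, with no overlap but a small difference (-0.13 ± 0.06, edgeR adjusted p = 0.108).

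The steps from lanosterol to cholesterol held the largest falls as well as estimates above 0. TM7SF2, a sterol C14 reductase, had 31.8, 23.4 and 35.4 CPM in ASO-L1 libraries, against 48.5, 38.7 and 48.4 CPM in SO-L1 libraries. It fell by 33% (95% interval -47% to -15.4%, log2 fold change -0.58 ± 0.15, edgeR adjusted p = 0.0177). DHCR7, which reduces 7-dehydrocholesterol to cholesterol in the last step, had 136, 102 and 142 CPM after ASO-L1 and 174, 167 and 179.9 CPM after SO-L1 (-0.45 ± 0.11, 0.0129). In both genes the SO-L1 libraries all lay above the ASO-L1 libraries, and ASO-L1 replicate 2 was the lowest by a wide margin.

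MSMO1, the sterol C4 methyl oxidase, had 187, 174 and 183 CPM after ASO-L1 and 217, 205 and 216 CPM after SO-L1, again without overlap. Its log2 ratio within numbers 1, 2 and 3 was -0.22, -0.23 and -0.23 (fitted -0.23 ± 0.06, edgeR adjusted p = 0.0156). HSD17B7, the C3 ketoreductase that follows MSMO1 and NSDHL, fell as well (-0.33 ± 0.11, 0.0459). NSDHL, the C4 decarboxylase between them, had 75.7, 76.6 and 76.9 CPM after ASO-L1 and 73.9, 65.1 and 72 CPM after SO-L1. Its groups did not overlap and its estimate was above 0, but it was not called (0.12 ± 0.07, edgeR adjusted p = 0.211). EBP, the isomerase of the sterol nucleus (0.06 ± 0.08, 0.583), SC5D, the C5 desaturase before DHCR7 (0.08 ± 0.06, 0.325), and CYP51A1, the C14 demethylase (-0.13 ± 0.13, 0.469), were not called either, and EBP changed sign without replicate 2 of both groups. The lower bounds of the 95% intervals were -2.46% for NSDHL, -7.35% for EBP and -3.59% for SC5D.

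**Figure D2:**
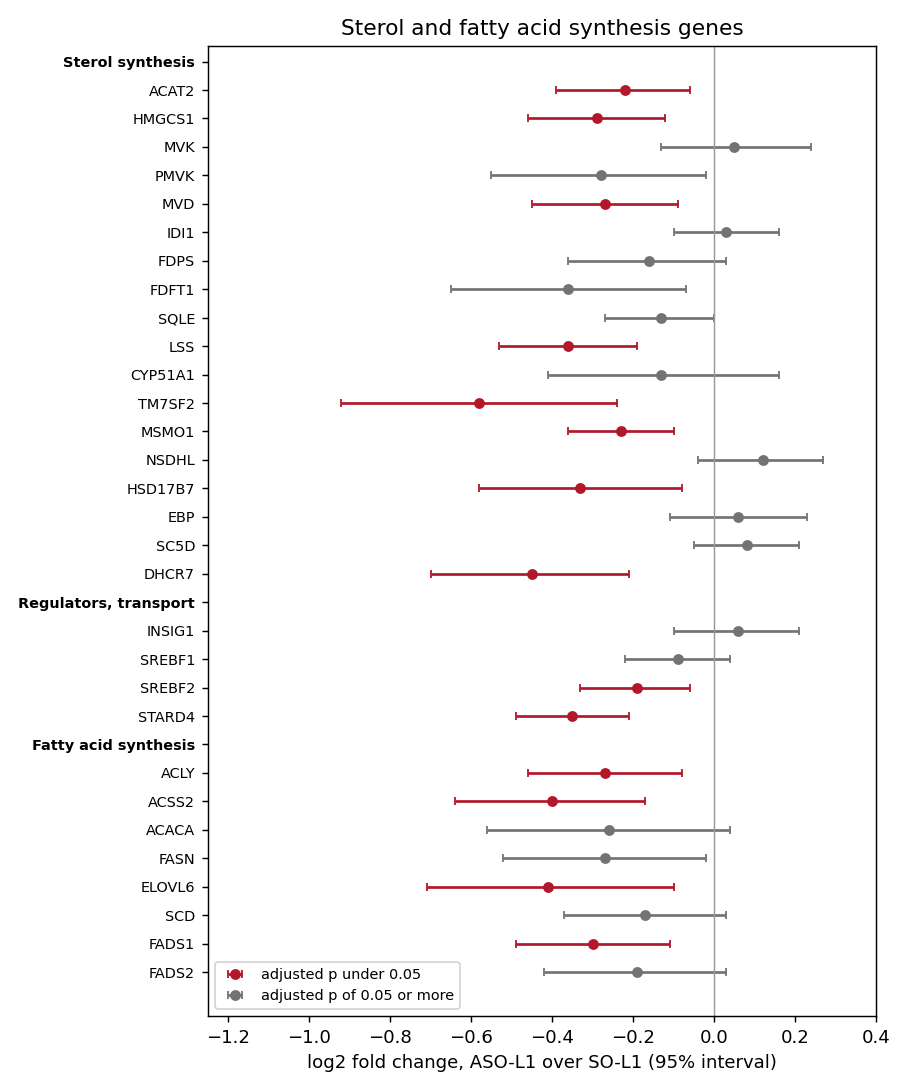
Log2 fold change of ASO-L1 over SO-L1 for each gene (points) with its 95% interval (bars) from edgeR's quasi-likelihood fit to 3 libraries per group, in red where the adjusted p over all tested genes was under 0.05. The 14 red genes all lie left of 0, from TM7SF2 at -0.58 to SREBF2 at -0.19.

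Among the regulators, the gene for the sterol-directed factor fell and the other SREBP gene was not called. SREBF2 had 387, 365 and 405 CPM after ASO-L1 and 433, 434 and 455 CPM after SO-L1, and it fell by 12.5% without overlap (-0.19 ± 0.06, edgeR adjusted p = 0.0356). When a library or a number was left out, the SREBF2 call remained in few fits. These were the fits without ASO-L1 replicate 3 (edgeR adjusted p = 0.0406) and without replicate 2 of both groups (0.0056). SREBF1 had 136, 135 and 143 CPM after ASO-L1 and 145, 143 and 151 CPM after SO-L1. ASO-L1 replicate 3 and SO-L1 replicate 2 nearly met, and the gene was not called (-0.09 ± 0.06, 0.275). The difference between the SREBF2 and SREBF1 changes was not tested. STARD4, a soluble carrier that moves cholesterol between membranes, fell to 69, 66.7 and 70.5 CPM in ASO-L1 libraries, against 89.5, 84.3 and 89.3 CPM in SO-L1 libraries. It fell by 21.6% (-0.35 ± 0.06, edgeR adjusted p = 0.00383), with the smallest p of all 30 genes. INSIG1, which retains the SREBPs and is itself an SREBP target, had 128, 144 and 130.2 CPM after ASO-L1 and 132, 122 and 134 CPM after SO-L1. The groups overlapped (0.06 ± 0.07, edgeR adjusted p = 0.553), the interval ran from -6.48% to 15.7%, and the sign changed without replicate 2 of both groups (-0.04).

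The 8 fatty acid genes all had estimates below 0. Both suppliers of acetyl-CoA, which also feed the sterol pathway, fell. ACLY, which cleaves citrate, had 585, 498 and 601 CPM after ASO-L1 and 676, 624 and 731 CPM after SO-L1 (-0.27 ± 0.09, edgeR adjusted p = 0.0330). ACSS2, which makes acetyl-CoA from acetate, had 69.1, 66.6 and 75.4 CPM after ASO-L1 and 96.8, 77.5 and 105 CPM after SO-L1 (-0.40 ± 0.11, 0.0160). Neither gene's groups overlapped, though SO-L1 replicate 2 came close to the ASO-L1 libraries for ACSS2.

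Of chain synthesis and elongation, ELOVL6 fell. This elongase, which extends palmitate, had 109.8, 80.7 and 107 CPM after ASO-L1 and 138, 112 and 145 CPM after SO-L1 (-0.41 ± 0.13, edgeR adjusted p = 0.0463). FASN, the fatty acid synthase, had 1279.6, 1054 and 1377 CPM after ASO-L1 and 1448, 1341 and 1685 CPM after SO-L1, and ACACA, the acetyl-CoA carboxylase that makes malonyl-CoA, 267, 199 and 278 CPM after ASO-L1 and 296, 263 and 333 CPM after SO-L1. In both the highest ASO-L1 library lay above SO-L1 replicate 2, and neither was called (FASN -0.27 ± 0.11, edgeR adjusted p = 0.0851; ACACA -0.26 ± 0.13, 0.161).

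Among desaturases FADS1, the delta-5 desaturase, had 169.8, 138 and 169.7 CPM after ASO-L1 and 195, 185 and 206 CPM after SO-L1, and it fell by 18.6% without overlap (-0.30 ± 0.09, edgeR adjusted p = 0.0244). SCD, the delta-9 desaturase that makes oleate, ranged from 845 to 1017 CPM after ASO-L1 and from 984 to 1181 CPM after SO-L1 (-0.17 ± 0.09, 0.163). FADS2, the delta-6 desaturase, was at -0.19 ± 0.10 (0.169).
With the replicate number as a block, which compares libraries of the same number, all 8 fatty acid genes fell, while the block called 22.5% of all tested genes lower. The adjusted p with the block was 0.00150 for FASN, 0.00191 for ACACA, 0.0276 for SCD and 0.0110 for FADS2, and 10 of the 18 sterol enzymes fell. With no filter on low counts 7 of the 8 fatty acid genes fell, and 8.93% of all genes then tested. How far the numbers pair the cultures is not given by the labels.

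**Figure D3:**
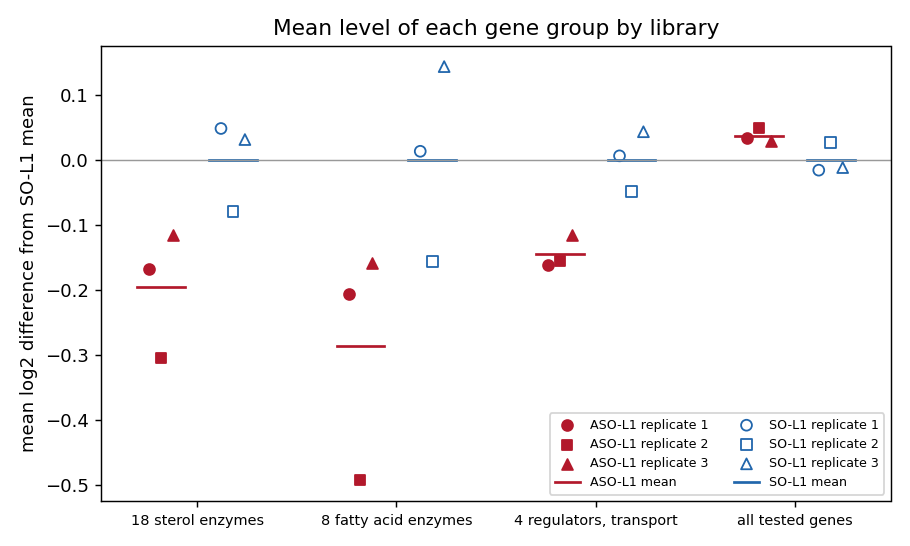
Mean log2 difference from the SO-L1 mean (y axis) over the genes of each group, for each library, with ASO-L1 (filled red) left of SO-L1 (open blue) and the group mean as a line. The fatty acid genes spread most, from -0.492 in ASO-L1 replicate 2 to 0.143 in SO-L1 replicate 3.

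Sterol and fatty acid genes were lower by similar amounts. The median log2 fold change was -0.23 for the 18 sterol enzymes and -0.27 for the 8 fatty acid enzymes, a difference of 0.04, and neither median is tested because the genes were chosen. Within numbers 1, 2 and 3 the sterol median was -0.25, -0.25 and -0.16 and the fatty acid median -0.19, -0.34 and -0.28. Their difference, sterol minus fatty acid, was -0.06, 0.09 and 0.12, with an SD of 0.10, so the difference of the medians was within the spread between replicate numbers. Summed over genes, sterol enzymes had 2586, 2306 and 2636 CPM after ASO-L1 and 3069.7, 2735 and 3056 CPM after SO-L1, and fatty acid enzymes 3826, 3166 and 3993 CPM after ASO-L1 and 4282, 3933 and 4801 CPM after SO-L1. The sterol sums did not overlap between the groups, while the fatty acid sum of ASO-L1 replicate 3 lay above that of SO-L1 replicate 2.

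The groups differed in their spread within a condition. Averaged over genes, the fatty acid enzymes were at -0.206, -0.492 and -0.159 log2 units from the SO-L1 mean in ASO-L1 replicates 1 to 3 and at 0.013, -0.156 and 0.143 in SO-L1 replicates 1 to 3. The sterol enzymes were at -0.167, -0.305 and -0.116 after ASO-L1 and at 0.048, -0.079 and 0.031 after SO-L1. In both groups of genes number 2 was the lowest library of its condition. All tested genes averaged 0.034, 0.048 and 0.029 after ASO-L1 and -0.016, 0.027 and -0.012 after SO-L1.

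**Figure D4:**
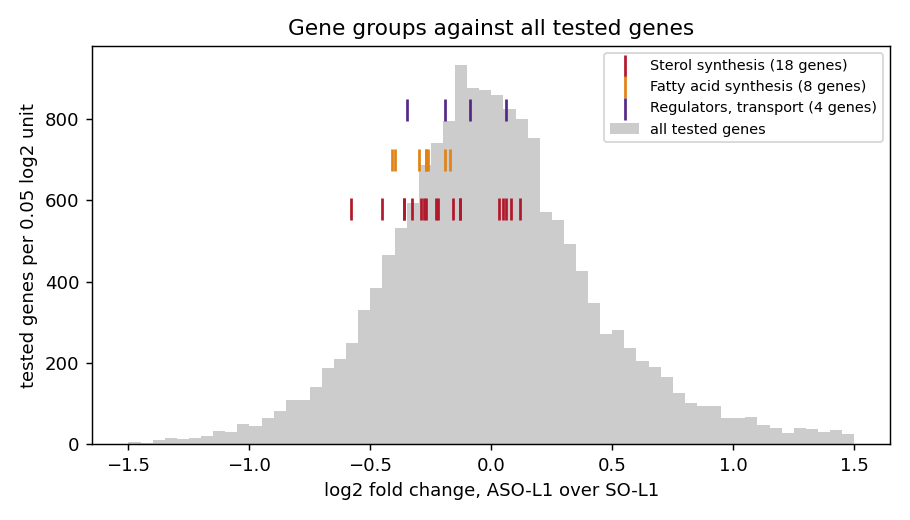
Histogram of log2 fold changes, ASO-L1 over SO-L1, of all tested genes between -1.5 and 1.5 (97.6% of them), with each of the 30 genes as a coloured tick at its own value and at an arbitrary height. All 8 fatty acid ticks lie between -0.41 and -0.17, and 13 of the 18 sterol ticks lie left of 0.

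Other genes of the same pathways, from lists written from general knowledge, did not share one direction. Of 30 further sterol genes for late synthesis, SREBP processing, uptake, efflux and storage, 5 rose and 3 fell by edgeR's test (18% and 15.7% of all tested genes), with a median of 0.05. LBR, an inner nuclear membrane protein that carries the same C14 reductase activity as TM7SF2, rose to 153, 160.2 and 149 CPM after ASO-L1, against 127, 122 and 132 CPM after SO-L1 (0.28 ± 0.06, edgeR adjusted p = 0.00819), a call lost without replicate 1 of both groups (0.0889). SCAP, which escorts the SREBPs, was not called (0.09 ± 0.09, edgeR adjusted p = 0.474).

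On that list the export gene ABCA1 and the storage gene SOAT1 fell. ABCG1, also an export gene, was not called (0.36 ± 0.24, edgeR adjusted p = 0.273), and NPC2 rose (0.36 ± 0.09, 0.0129). ABCG1 and NPC2 are named after their values were seen. ABCA1, the transporter that exports cholesterol, had 80.1, 55.6 and 82 CPM after ASO-L1 and 109, 118 and 119 CPM after SO-L1 (-0.67 ± 0.13, edgeR adjusted p = 0.00692). SOAT1, which esterifies cholesterol for storage, had 37.7, 38.9 and 38.7 CPM after ASO-L1 and 51.7, 65.5 and 50.2 CPM after SO-L1. It fell by 0.54 on the log2 scale (SE 0.10, adjusted p = 0.00432, and 0.0576 without replicate 1 of both groups), and the groups did not overlap for either gene. RNF139, a ubiquitin ligase of the endoplasmic reticulum, rose by 0.60 ± 0.10 (0.00246).

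Of 36 further fatty acid gene symbols, 33 were in the table and 31 were tested. Of those tested, 5 rose and 8 fell (18% and 15.7% of all tested genes), with a median of -0.16. The absent symbols HACD1, HACD2 and HACD3 name the same genes as PTPLA, PTPLB and PTPLAD1, which were on the list and in the table. The elongase ELOVL3 rose to 1.94, 3.16 and 1.4 CPM after ASO-L1, against 0.384, 0.407 and 0.326 CPM after SO-L1 (2.53 ± 0.36, edgeR adjusted p = 0.00193), and ELOVL7, another elongase, by 0.93 ± 0.14 (0.00221). ACSL1, which activates long-chain fatty acids, rose by 0.88 ± 0.14 (0.00224), and ME1, a cytosolic malic enzyme that makes NADPH, changed by -0.60 ± 0.12 (0.00446, and 0.0565 or 0.0526 without replicate 1 or 3 of both groups). Of the other elongases on the list, which are named after their values were seen, ELOVL1 rose (0.30 ± 0.08, edgeR adjusted p = 0.0153) and ELOVL2, ELOVL4 and ELOVL5 were not called.

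In the authors' deposited table, 9 of the 30 genes were lower and 0 higher at its adjusted p under 0.05, where 9.77% of its genes were lower. Its log2 fold changes were -0.60 for TM7SF2, -0.48 for DHCR7 and -0.36 for STARD4, all among the 9. FASN, at -0.28, was not among them (that table's adjusted p 0.0785). Nor were ACAT2, MVD, HSD17B7, SREBF2 and ELOVL6, which edgeR called lower (that table's adjusted p 0.0517 to 0.0819).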

How the data were processed

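The authors deposited raw read counts per gene symbol, whose title says duplicates were removed, for 6 libraries. Per the submitters' processing notes, Trim Galore 0.4.0, TopHat2 2.0.13, featureCounts, Subread 1.5.0 and hg19 were used, with no roles stated. No source used here gives the annotation or the strand setting. A deposited table of log2 normalised values, batch-corrected by the authors per its title, was not used. The authors' own comparison, also deposited, holds per the file headers log2 fold changes, moderated t and log-odds scores, p-values and adjusted p-values, and its model is not stated.

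Counts were tested with edgeR 4.0.16 (quasi-likelihood, robust, TMM, filterByExpr with a minimum count of 10 and total of 15), which kept 16873 of 53712 genes, Benjamini-Hochberg adjusted, two-sided, at 0.05. SE is the log2 fold change over the square root of F, and intervals are 95%. The common biological coefficient of variation was 10.2%. CPM are TMM-normalised. An exact permutation test of 3 against 3 cannot go below p = 0.1, so none is given. The script was tested on simulated data. Genes were named by a fixed rule (all 30 members, the 4 smallest p of each further list, and SCAP); some genes that the rule names are not reported here. Members and lists were chosen with earlier results of these data known, so lists are described by counts and medians without a test.

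The main test did not pair the libraries. Pairing by replicate number was used in the block alternative and the ratios within numbers, because both groups share the numbers. Deviations from group means correlated at 0.102, 0.377 and 0.211 for numbers 1, 2 and 3. Libraries 1 and 3 also correlated across numbers (0.162 and 0.156), so only number 2 is clearly matched. No 2 libraries of a group were alike within sampling noise (chi-square per degree of freedom 2.05 to 24.9). Promoter sequences are from RefSeq (GRCh38.p14), exon lengths from GENCODE v29.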

Additional observations from a re-analysis of the deposited data

How the results depend on the processing

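Alternatives were RLE size factors, no filter, a CPM above 1 in 3 libraries, DESeq2 1.42.0, limma-voom (limma 3.58.1), the replicate block, and leaving out each library or each number of both groups. None of the 15 alternatives called a member higher. All 14 calls remained with the other normalisation, filters, tools and block. The fatty acid count of 4 was 7 with no filter and 8 with the replicate block, and the block changed no other call among the sterol enzymes and regulators except PMVK and FDFT1. Leaving out a library or a number gave 0 to 10 sterol enzymes called, 0 to 8 fatty acid enzymes, 0 to 2 regulators and 1183 to 7197 genes in all. The sterol median ranged from -0.26 to -0.19 and the fatty acid median from -0.35 to -0.18 in these fits, and their difference from -0.03 to 0.10. Estimates near 0 changed sign for MVK (-0.03 to 0.11 over these fits, -0.01 without ASO-L1 replicate 3), EBP (-0.04 to 0.12, -0.01 without SO-L1 replicate 2) and INSIG1 (-0.04 to 0.12). The background share of genes at least as abundant as the lowest member was chosen after seeing the data. With 3 libraries per group, a gene that was not called may still have changed by an amount within its 95% interval. Why the counts depend on single libraries was not tested.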
